A study of Mus musculus with 16 samples.

Results

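The comparison described here is that of Gadd45b KO with WT liver after N-diethylnitrosamine (DEN) and phenobarbital (PB). Its members were the 4 arrays titled KO DEN + PB and the 4 titled WT DEN + PB, 8 of the 16 arrays of the series, and the measurement on them was the signal of 41174 probes. All mice were male and had received the carcinogen DEN (90 mg/kg) when 5 weeks old, and livers were taken at 57 weeks. Both groups of the comparison also drank water containing PB (0.5 g/l) between 7 and 57 weeks, while the other 8 mice, 4 WT DEN and 4 KO DEN, received DEN and no PB. WT mice were C57BL/6J. KO mice carried the Gadd45b tm1Flv null allele in every cell, from a stock whose name joins B6 with another inbred strain, and elsewhere the study places them on C57BL/6J, so the effect of the allele and that of any remaining strain difference cannot be told apart. RNA came from pieces of whole liver outside tumours, 1 mouse per array. The question behind the comparison was which transcripts depend on Gadd45b under a tumour-promoting drug.

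Gadd45b is a small stress-inducible protein without enzyme activity that binds and regulates kinases of the mitogen-activated protein kinase (MAPK) cascade, among them MAP3K4 and MKK7, and in liver it binds the nuclear receptor CAR. PB activates CAR, which drives genes of drug metabolism such as those of the Cyp2b family and, over months, promotes the growth of liver tumours started by DEN. Liver also holds Kupffer cells, which are its resident macrophages, sinusoidal endothelial cells, stellate cells, which store retinoid and make matrix, and the epithelial cells of bile ducts. All of these contribute RNA to a piece of liver, so that fewer cells of a type and less RNA per cell cannot be told apart in these data.

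Values below are log2 processed signals minus the 75th percentile of the array, so that 0 is the signal of a fairly bright probe, and a difference is KO minus WT. Fitted differences are given with their standard error (SE) and the Benjamini-Hochberg adjusted p of limma over all 24454 probes tested. A gene was represented by its brightest tested probe and counted as called where its adjusted p was below 0.05 and its fold change at least 1.5. Where a call is given as lost without a named array, leaving out that array gave the highest adjusted p. Leaving out other arrays may have lost it as well. The share of spots well above background was 60.99% to 67.73% on the WT DEN + PB arrays and 58.25% to 61.06% on the KO DEN + PB arrays, and on each of the 4 slides the WT array had the larger share. Each slide held 1 array of each of these groups, which allowed a difference within every slide. Log2 signals correlated across probes with r from 0.979 to 0.992 among WT arrays, from 0.980 to 0.987 among KO arrays and from 0.961 to 0.984 between them. The first principal component of the 8 arrays held 39.4% of the variance and separated the genotypes, with scores of -55.2 to -22.4 in WT and 20.4 to 53.1 in KO.

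Gadd45b itself had log2 signals of -0.16, 0.56, 1.18 and 0.58 on the WT DEN + PB arrays and of -7.02, -7.00, -5.79 and -6.93 on the KO DEN + PB arrays. The scanner software marked it as above background in 4 of 4 WT and 0 of 4 KO mice, so that its signal was at least 44.8-fold lower in KO (fitted difference -7.22 ± 0.37 (SE), adjusted p = 9.71e-09). A second probe gave at least 27.0-fold lower. The genotype labels thus held in all 8 mice. Among the rest of its family, Gadd45a, another stress-inducible member, was also lower (-1.20 ± 0.33 (SE), adjusted p = 0.0403, but 0.126 without WT DEN + PB replicate 3), with groups that overlapped. Gadd45g differed by 1.16 ± 0.77 (SE) and was not called (adjusted p = 0.389).

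The loss of Gadd45b under DEN + PB went with far more transcripts lower than higher. Of 13304 genes tested, 1012 (7.61%) were called, 234 higher in KO (1.76%) and 778 lower (5.85%), and 3109 had an unadjusted p under 0.05. The median called rise was 0.87 and the median called fall -1.06, against a median of 0.03 over all genes. The groups did not overlap for 943 of the called genes (93.2%), and for 17.3% of all genes. The difference had the same sign on all 4 slides for 1002 called genes (99.0%) and for 37.4% of all genes. Calls were made on the difference between the same arrays, so high shares among called genes follow from the selection and are no separate support. Falls were most frequent among genes with dim probes. When the genes were ordered by mean signal and cut into 3 parts of equal size, 498 of the dimmest 4435 were called lower and 78 higher. In the middle part the counts were 225 and 70, and of the brightest 4435, 55 were lower and 86 higher. The KO arrays also had fewer spots above background, as given above, and the part of this in the count of falls was not tested. Among genes of probes well above background on all 16 arrays, 635 were lower and 233 higher.

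**Figure D1:**
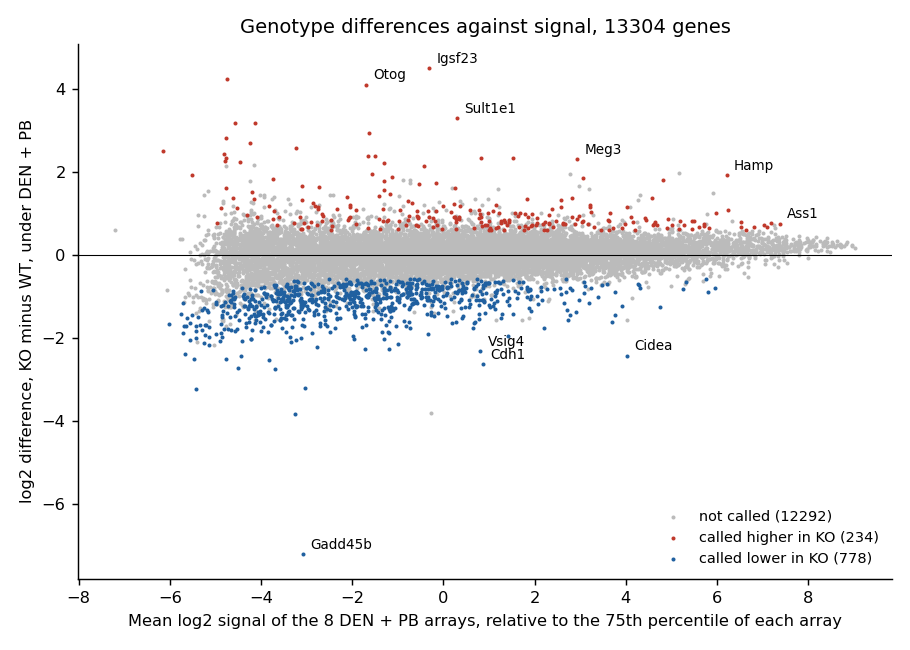
Difference between KO and WT under DEN + PB (log2, vertical axis) against the mean log2 signal of the 8 arrays (horizontal axis) for 13304 genes, 1 point per gene, red where called higher in KO (234), blue where called lower (778) and grey where not called. Falls are dense on the left, among dim probes, while at the right end, with the brightest probes, the called genes are rises such as Ass1 and Hamp.

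How many genes passed depended on the processing. With normexp, another way of correcting local background, 44 genes were called, 14 higher and 30 lower. With normexp after leaving out spots whose background was marked as outlying, 422 were called, 146 higher and 276 lower. Both normexp runs also used the median signal and an offset of 50, which shrinks the differences of dim probes. The part of each step in the lower counts was not tested. Without any scaling between arrays, 31 were higher and 1054 lower, with a median of -0.31 over all genes. The 13 genes among those named here that were called under every correction, scaling, filter and block tried at 1.5-fold, and without each array in turn, were Gadd45b (which the filter for signal above background on all 16 arrays removes, so that it was not tested there), Igsf23, Wdfy1, Sult1e1, Sult5a1, Meg3, Vsig4, Cd68, C5ar2, Adgrl4, Cd24a, Scd2 and Sdcbp2.

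Markers of Kupffer cells and other leukocytes were lower in KO liver. Of 35 such genes tested, 0 were called higher and 19 lower, with a median of -1.02. The shares to set beside this and every list below are 1.76% called higher and 5.85% called lower over all genes. Of the dimmest 4435 genes, 11.2% were called lower. Those called lower included Adgre1 (the macrophage antigen F4/80), Vsig4 and Clec4f, which mark Kupffer cells, with Timd4, Cd5l, Cd68, Csf1r (the receptor for macrophage colony-stimulating factor) and Lyz2. C1qa, C1qb and C1qc, the chains of complement C1q, which macrophages make, were called as well. So were Itgam, mainly of myeloid cells, Ptprc, a general leukocyte antigen, and Cd79b and Ms4a1 of B cells. S100a8 and S100a9 of neutrophils and H2-Aa and Cd74 of antigen presentation were also called. The scavenger receptor Marco (0.22) and the T cell genes Cd3e (0.37), Cd4 (0.26) and Cd8a (0.62) were not called.

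Adgre1 had log2 signals of 2.17, 2.40, 2.05 and 2.96 in WT and of 0.75, 0.79, 0.04 and 0.18 in KO. The lowest WT value lay above the highest KO value, and the difference was -1.95 ± 0.33 (SE, adjusted p = 0.00200), or 3.88-fold. Vsig4, a complement receptor of Kupffer cells, was at 1.96, 2.14, 1.88 and 1.92 in WT and at 0.43, -0.37, -0.86 and -0.62 in KO, a difference of -2.33 ± 0.30 (SE, adjusted p = 0.000309). Cd68, a lysosomal glycoprotein of macrophages, was at 0.24, 0.11, 0.24 and 0.06 in WT and at -1.22, -1.60, -1.86 and -1.76 in KO, a difference of -1.77 ± 0.20 (SE, adjusted p = 0.000140). The 4 WT arrays were within 0.3 of each other for both genes, and each KO array was lower. Lyz2, macrophage lysozyme, differed by -2.02 ± 0.36 (SE). C5ar2, a receptor for the complement fragment C5a, and Npl, an enzyme that breaks down sialic acid, were in no list and were among the 10 largest falls (-2.26 ± 0.25 and -2.23 ± 0.20 (SE)).

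The promoters of the called leukocyte genes were read for the core motif of PU.1, the factor that governs myeloid genes, as GAGGAAGT on either strand (ACTTCCTC on the other). RefSeq promoter windows of 300 bases were found for 13 of the 19 lower genes, and 2 of them held the motif, against 3.56% of the promoters of all genes tested. Among all tested members with a window it was in 2 of 24 leukocyte (8.33%), 2 of 8 bile duct, 2 of 12 periportal, 1 of 18 endothelial and 0 of 25 stellate and matrix promoters. Among the called members it was in 0 of 5 bile duct, 0 of 5 periportal, 0 of 5 endothelial and 0 of 12 stellate and matrix promoters, numbers too small for a comparison. Both are shown because they are the called leukocyte genes whose windows hold it, with the motif in capitals, 5′ to 3′ on the strand of the gene (GRCm38.p6). A match is a description of the letters and not evidence of binding.
S100a8, chr3:90668821-90669120, plus strand: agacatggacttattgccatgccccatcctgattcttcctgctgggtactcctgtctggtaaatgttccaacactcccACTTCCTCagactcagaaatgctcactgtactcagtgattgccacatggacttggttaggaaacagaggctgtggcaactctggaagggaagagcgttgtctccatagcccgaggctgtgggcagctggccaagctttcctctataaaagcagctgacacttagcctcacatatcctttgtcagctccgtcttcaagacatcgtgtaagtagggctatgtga
C1qc, chr4:136892865-136893164, minus strand: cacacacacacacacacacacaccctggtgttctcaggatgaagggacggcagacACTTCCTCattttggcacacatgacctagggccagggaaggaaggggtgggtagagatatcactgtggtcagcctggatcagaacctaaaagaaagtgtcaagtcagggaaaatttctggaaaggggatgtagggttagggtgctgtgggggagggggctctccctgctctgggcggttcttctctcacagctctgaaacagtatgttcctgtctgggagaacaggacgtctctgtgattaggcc

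Genes of stellate cells and of the matrix were lower in the same livers. Of 36 tested, 0 were called higher and 17 lower, with a median of -0.76. Lrat, which esterifies retinol for storage in stellate cells, was at 0.84, 1.01, 1.86 and 2.26 in WT and at 0.34, -0.37, -0.24 and -0.23 in KO, a difference of -1.62 ± 0.35 (SE, adjusted p = 0.00978), while its second probe differed by -0.80 and was not called (adjusted p = 0.0988). Fbn1, the microfibril protein fibrillin, was at -2.56, -2.34, -2.07 and -1.83 in WT and within -3.98 to -3.84 on the 4 KO arrays (-1.71 ± 0.19 (SE), adjusted p = 0.000107). Nid1, a basement membrane protein (-1.42 ± 0.23), and the matrix protease Mmp2 (-1.22 ± 0.26), well above background on 3 of 4 KO arrays, were also lower. The other members called lower were Col1a2, Col4a1, Col4a2, Col5a2, Col6a3, Lum, Dcn, Timp3, Loxl1, Pdgfra, Reln, Hgf and Vim. The fibrillar collagens Col1a1 (-0.78) and Col3a1 (-0.65) were not called, nor were Acta2 (0.06) and Tagln (0.03), which mark contractile cells.

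Endothelial genes were lower as well. Of 35 tested, 0 were called higher and 9 lower (Pecam1, Flt4, Tek, Clec4g, Fcgr2b, Emcn, Dnase1l3, Oit3 and Icam2), with a median of -0.52. Pecam1, an adhesion molecule of all endothelium, was at -2.06, -2.58, -2.84 and -2.40 in WT and at -3.46, -3.53, -3.81 and -3.62 in KO (-1.13 ± 0.16 (SE), adjusted p = 0.000638). Clec4g, a lectin of sinusoidal endothelium, was at 4.35, 4.70, 4.39 and 4.67 in WT and at 3.40, 3.29, 3.37 and 3.10 in KO (-1.24 ± 0.20 (SE), adjusted p = 0.00166), and Tek, the angiopoietin receptor, differed by -1.13 ± 0.18 (SE). No KO array reached the lowest WT array for any of the 3. Adgrl4, an adhesion receptor of endothelium that was in no list, differed by -2.03 ± 0.28 (SE).

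Of 34 genes of the TGF-beta pathway, a signalling route with broad roles in matrix production, 0 were higher and 7 lower, with a median of -0.24. By role, these were the ligand Tgfb3 (-0.92 ± 0.18) and its latency protein Ltbp3, the receptor Acvrl1 (-1.52 ± 0.40), which is an endothelial one, the mediator Smad2, the repressor Skil (-0.88 ± 0.20, with a second probe at -0.33 that was not called), and Tgfbi and Pmepa1, which the pathway induces. Pmepa1 was at -2.60, -2.66, -2.59 and -2.75 in WT and at -4.36, -4.13, -4.70 and -4.47 in KO, a difference of -1.77 ± 0.19 (SE, adjusted p = 6.51e-05), with its probe above background on 3 of 4 KO arrays, while its second probe differed by -0.29 and was not called. The call of Acvrl1 was lost without KO DEN + PB replicate 4 (adjusted p = 0.0885). Tgfbr2, the type II receptor, was at 2.74, 2.92, 2.94 and 3.15 in WT and at 2.70, 2.49, 2.29 and 2.12 in KO. The groups did not overlap and the adjusted p was 0.0353, but the difference of -0.54 ± 0.15 (SE), or 1.45-fold, was under the fold threshold.

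Bile duct genes formed the last of these groups. Of 13 tested, 0 were higher and 7 lower (Krt19, Krt7, Epcam, Cldn7, Bicc1, Pkhd1 and Tspan8), with a median of -0.99, while 5 further members were not measured well enough to be tested. Krt19, a keratin of bile duct and progenitor cells, was at -1.96, -1.58, -1.57 and -1.58 in WT and at -2.65, -2.66, -2.67 and -2.44 in KO, a difference of -0.93 ± 0.19 (SE, adjusted p = 0.00734). Tspan8, a tetraspanin of epithelia, was at -2.52, -2.11, -2.25 and -1.93 in WT and at -4.24, -4.46, -4.29 and -4.02 in KO (-2.05 ± 0.27 (SE), adjusted p = 0.000364). The groups were apart for both genes. Epcam, an epithelial adhesion molecule, differed by -1.20 ± 0.29 (SE) and lost its call when KO DEN + PB replicate 2 was left out (adjusted p = 0.0665). Sox9, a transcription factor of the same cells, differed by -0.22 and was not called, nor was Spp1 (-1.03, adjusted p = 0.0996). Cd24a, a surface antigen of epithelial and progenitor cells, differed by -1.72 ± 0.26 (SE, adjusted p = 0.000904).

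The mean of each marker list per array, with every gene centred on its mean over the 16 arrays, also separated the groups. It is taken over the same genes on the same arrays and is no separate support. For Kupffer and leukocyte genes it was 0.26 to 0.50 in WT DEN + PB and -0.76 to -0.36 in KO DEN + PB. It was 0.28 to 0.62 against -0.40 to -0.17 for stellate and matrix genes, 0.12 to 0.30 against -0.42 to -0.28 for endothelial genes, and 0.28 to 0.70 against -0.50 to -0.18 for bile duct genes. Lists with few calls could separate too. Bile acid genes, with 1 of 25 called, were at -0.16 to 0.005 in WT DEN + PB and 0.09 to 0.23 in KO DEN + PB. The counts called in the marker lists changed in the normexp runs, which differ in more than the background correction. With normexp, 2 Kupffer and leukocyte genes and 0 stellate, 0 endothelial and 0 bile duct genes were called lower, and with normexp without outlying backgrounds 17, 10, 9 and 1. Over the settings and leave-outs tried, the medians ran from -1.36 to -0.72 for Kupffer and leukocyte genes, from -1.11 to -0.47 for stellate and matrix genes, from -0.86 to -0.32 for endothelial genes and from -1.33 to -0.40 for bile duct genes.

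**Figure D2:**
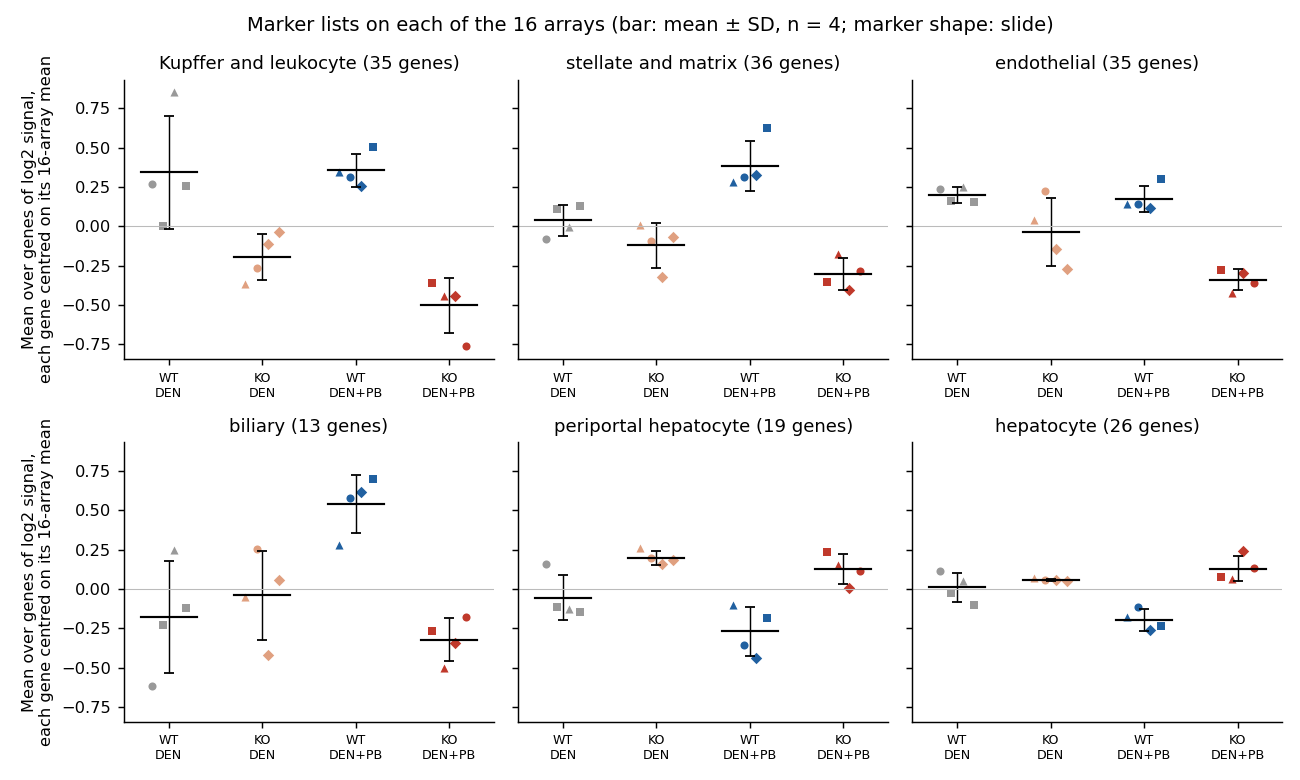
Mean log2 signal of 6 marker lists on each of the 16 arrays (vertical axis, each gene centred on its mean over all arrays), by group (horizontal axis). Points are arrays with the slide given by shape, bars the mean ± SD of 4 arrays, and in all 6 panels the WT DEN + PB and KO DEN + PB points do not overlap, with KO lower in the 4 non-hepatocyte lists and higher in the periportal and hepatocyte lists.

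Several genes of periportal hepatocytes were higher in KO. These are the cells near the portal vein that take up amino acids and make urea. Of 19 periportal genes tested, 9 were called higher and 1 lower, with a median of 0.63. The 9 were Ass1 and Asl, consecutive enzymes of the urea cycle, Sds, Sdsl, Hal, Uroc1 and Gls2, which break down serine, histidine and glutamine, Etnppl, and Pigr, the receptor that carries immunoglobulin A into bile. Ass1 was at 7.38, 6.93, 7.10 and 6.62 in WT and at 7.84, 7.86, 7.69 and 7.62 in KO, a difference of 0.74 ± 0.17 (SE, adjusted p = 0.0117). Pigr was at 4.75, 4.39, 4.29 and 4.57 in WT and at 5.21, 5.39, 5.24 and 5.61 in KO (0.86 ± 0.16 (SE), adjusted p = 0.00473). Sds, serine dehydratase, was at 3.87, 3.10, 2.86 and 3.96 in WT and at 4.34, 4.66, 4.48 and 4.93 in KO (1.15 ± 0.29 (SE), adjusted p = 0.0226, or 0.0766 without WT DEN + PB replicate 3). All KO arrays lay above all WT arrays for the 3 genes. The count of 9 was 4 with quantile normalization, 0 without scaling, 0 with normexp, and 4 to 9 when 1 array was left out, while the median stayed between 0.29 and 0.72.

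The single periportal gene called lower was Cdh1, E-cadherin, the adhesion molecule of epithelial junctions, which bile duct cells carry too. It was at 2.32, 2.39, 2.56 and 1.45 in WT and at 0.50, -1.14, -0.31 and -0.89 in KO, with no overlap. The difference of -2.64 ± 0.55 (SE, adjusted p = 0.00784), or 6.23-fold, was the largest measured fall apart from Gadd45b among genes above background on all 8 arrays, and within slides it ran from -3.46 to -0.95.

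Of 26 general hepatocyte genes, 2 were higher (Ass1 and Tat) and 0 lower, with a median of 0.30, and 23 of the 26 differences were above 0. Tat, tyrosine aminotransferase, lost its call under 11 of 13 alternatives and without 8 single arrays (adjusted p up to 0.127 without WT DEN + PB replicate 4). Hnf4a (0.11), the factor that maintains hepatocyte identity, and Alb (0.16), albumin, were not called. Pericentral genes, of hepatocytes around the central vein, had 1 member higher and 0 lower of 22, with a median of 0.27. Both shares called lie near or under the 7.61% of all genes called in either direction. All of these calls were rises, and 1.76% of all genes were called higher. Both counts were 0 with quantile normalization, with normexp and without scaling. The lowest medians over the alternatives were -0.04 for the general and -0.07 for the pericentral list. The other rises among the genes with the brightest probes were also hepatocyte products, namely Aldh1l1, an enzyme of folate metabolism (0.68 ± 0.14, adjusted p = 0.00793), Agxt, which detoxifies glyoxylate (0.71 ± 0.20), Apoa5, an apolipoprotein (0.75 ± 0.22), and Plg, plasminogen (0.68 ± 0.19). The last 3 lost their calls without 7, 11 and 4 single arrays (highest adjusted p = 0.106 for Agxt without WT DEN + PB replicate 3, 0.139 for Apoa5 and 0.121 for Plg, both without KO DEN + PB replicate 2). The second probe of Apoa5 differed by 0.80 and was not called, and that of Plg by 0.64 and was called. The falls among the genes with the brightest probes were Csad, of taurine synthesis (-0.91 ± 0.21, adjusted p = 0.0584 without WT DEN + PB replicate 3), the tubulin Tubb2a (-0.81 ± 0.20), the threonyl-tRNA synthetase Tars (-0.65 ± 0.17), Igfbp7 (-0.81 ± 0.16) and Dcn (-0.60 ± 0.15), of which Tubb2a, Tars and Dcn lost their calls when KO DEN + PB replicate 2 was left out (0.0861, 0.0988 and 0.0771 as adjusted p). Other probes of Tubb2a (-1.17 and -0.46) and Tars (-0.66) were not called, while the second probe of Csad was (-0.86).

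The genes of hepcidin, the liver hormone that lowers iron export, were higher. Hamp was at 5.70, 3.77, 5.60 and 5.96 in WT and at 7.14, 7.76, 7.20 and 6.56 in KO, a difference of 1.91 ± 0.39 (SE, adjusted p = 0.00766), or 3.76-fold. WT replicate 2 was the lowest by far, and without it the call remained. Hamp2 rose by 1.85 ± 0.51 (adjusted p = 0.0370, or 0.107 without WT DEN + PB replicate 2). Their sequences are close, so cross-hybridization between the probes is possible and was not tested. Of the 17 other iron genes, Tfrc, the transferrin receptor (-1.26 ± 0.34, adjusted p = 0.123 without KO DEN + PB replicate 2), and Heph, a copper oxidase of iron export (-1.33 ± 0.31, adjusted p = 0.0578 without WT DEN + PB replicate 4), were lower. In the acute phase list, Hamp, Stat3 and Saa4 were higher and 0 of 28 lower, with a median of 0.38. Stat3 (1.00 ± 0.28) and Saa4 (0.79 ± 0.22) lost their calls without 7 and 5 single arrays (highest adjusted p = 0.131 without WT DEN + PB replicate 3 and 0.104 without KO DEN + PB replicate 3). The second probe of Saa4 differed by 0.40 and was not called (adjusted p = 0.108).

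CAR targets were higher with PB in both genotypes. Their mean relative to all 16 arrays was -0.96 to -0.52 in WT DEN and 0.71 to 0.90 in WT DEN + PB, and -1.21 to -0.77 in KO DEN and 0.81 to 1.10 in KO DEN + PB. Between genotypes under PB, of 39 targets of CAR, 2 were higher and 2 lower, with a median of 0.01. Among all genes, 7.61% were called in either direction. Cyp2b9, a steroid hydroxylase that PB induces, was at 6.82, 7.10, 7.09 and 7.45 in WT and at 7.29, 6.79, 6.95 and 6.92 in KO (-0.13 ± 0.43 (SE), adjusted p = 0.892). Cyp2b10, the standard CAR target, was at 5.97, 5.66, 6.12 and 5.33 in WT and at 6.09, 5.57, 4.72 and 5.68 in KO (-0.25 ± 0.62 (SE), adjusted p = 0.842), and turned to 0.01 without KO DEN + PB replicate 3. The groups overlapped for both, and SEs of this size leave room for sizeable differences either way.

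Cyp2b13, a neighbour in the family, differed by -0.28 ± 0.52 (SE, adjusted p = 0.789) by its brightest probe, but its second probe gave another picture. That probe was at 2.62, 1.58, 1.32 and 4.20 in WT and at -7.44, -5.87, -1.06 and -7.28 in KO, where it was above background on 1 of 4 arrays, a fitted difference of -7.85 ± 1.07 (SE, adjusted p = 0.000438). Under DEN alone it was above background on 4 of 4 WT and 0 of 4 KO arrays. Against KO arrays at background the fitted differences are not exact sizes. The probe sequences were not used here, and the family is of near-identical genes, so what each of the probes measures was not settled.

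The CAR targets called were Sult1e1 and Akr1b7, higher, and Fndc5 and Abcc4, lower. Sult1e1, the estrogen sulfotransferase, was at -1.23, -0.83, -2.09 and -1.20 in WT and at 2.59, 1.83, 2.02 and 1.34 in KO, a difference of 3.28 ± 0.42 (SE, adjusted p = 0.000283), or 9.73-fold. Akr1b7, an aldose reductase-like enzyme, was at -1.26, -0.98, -0.97 and -0.95 in WT and at 1.06, 0.47, 0.40 and 0.86 in KO (1.74 ± 0.22 (SE), adjusted p = 0.000293). For both, every KO array was well above every WT array, and the differences within slides ran from 2.17 to 4.12 for Sult1e1 and from 1.36 to 2.02 for Akr1b7. Fndc5, the precursor of irisin, was at -1.10, -1.11, -0.15 and -0.83 in WT and at -1.94, -1.78, -1.53 and -1.67 in KO, without overlap, a difference of -0.94 ± 0.24 (SE, adjusted p = 0.0253, or 0.0791 without WT DEN + PB replicate 3), and its second probe differed by -0.74 (adjusted p = 0.0654). Abcc4, an export pump that the NRF2 list also holds, differed by -0.90 ± 0.26 (adjusted p = 0.0481) and lost the call without most single arrays (highest adjusted p = 0.157). Its second probe differed by -1.15 and was not called (adjusted p = 0.104). Sult5a1, another sulfotransferase, which was in no list, was at 0.66, 0.92, 0.51 and -0.68 in WT and at 2.33, 3.13, 2.85 and 2.40 in KO (2.33 ± 0.40 (SE), adjusted p = 0.00242).

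Of 12 genes in the study's quantitative PCR, 2 were called higher and 6 lower, and since the study took at least Fndc5 and Tgfbr2 from these arrays, the count is not independent evidence of a direction. Those not yet given were Nedd9, a scaffold of cell adhesion, and Casp1, the inflammasome protease. Nedd9 was at -1.89, -1.98, -1.68 and -2.16 in WT and at -2.88, -4.04, -4.66 and -3.72 in KO, where it was above background on 3 of 4 arrays (-1.90 ± 0.28 (SE), adjusted p = 0.000806). Casp1 was at -0.11, 0.05, 0.58 and 0.50 in WT and at -0.54, -0.90, -0.32 and -0.84 in KO (-0.90 ± 0.21 (SE), adjusted p = 0.0144, or 0.0541 without KO DEN + PB replicate 2). For each of the 8 called genes the groups did not overlap, as for 17.3% of all genes. Without overlap the two-sided exact permutation test always gives p = 0.0286, the smallest that 4 arrays against 4 allow. It is therefore no support beyond the overlap itself. The same p was found for Tgfbr2, and it was 0.457, 0.514 and 0.429 for Cyp2b9, Cyp2b10 and Cyp2b13.

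**Figure D3:**
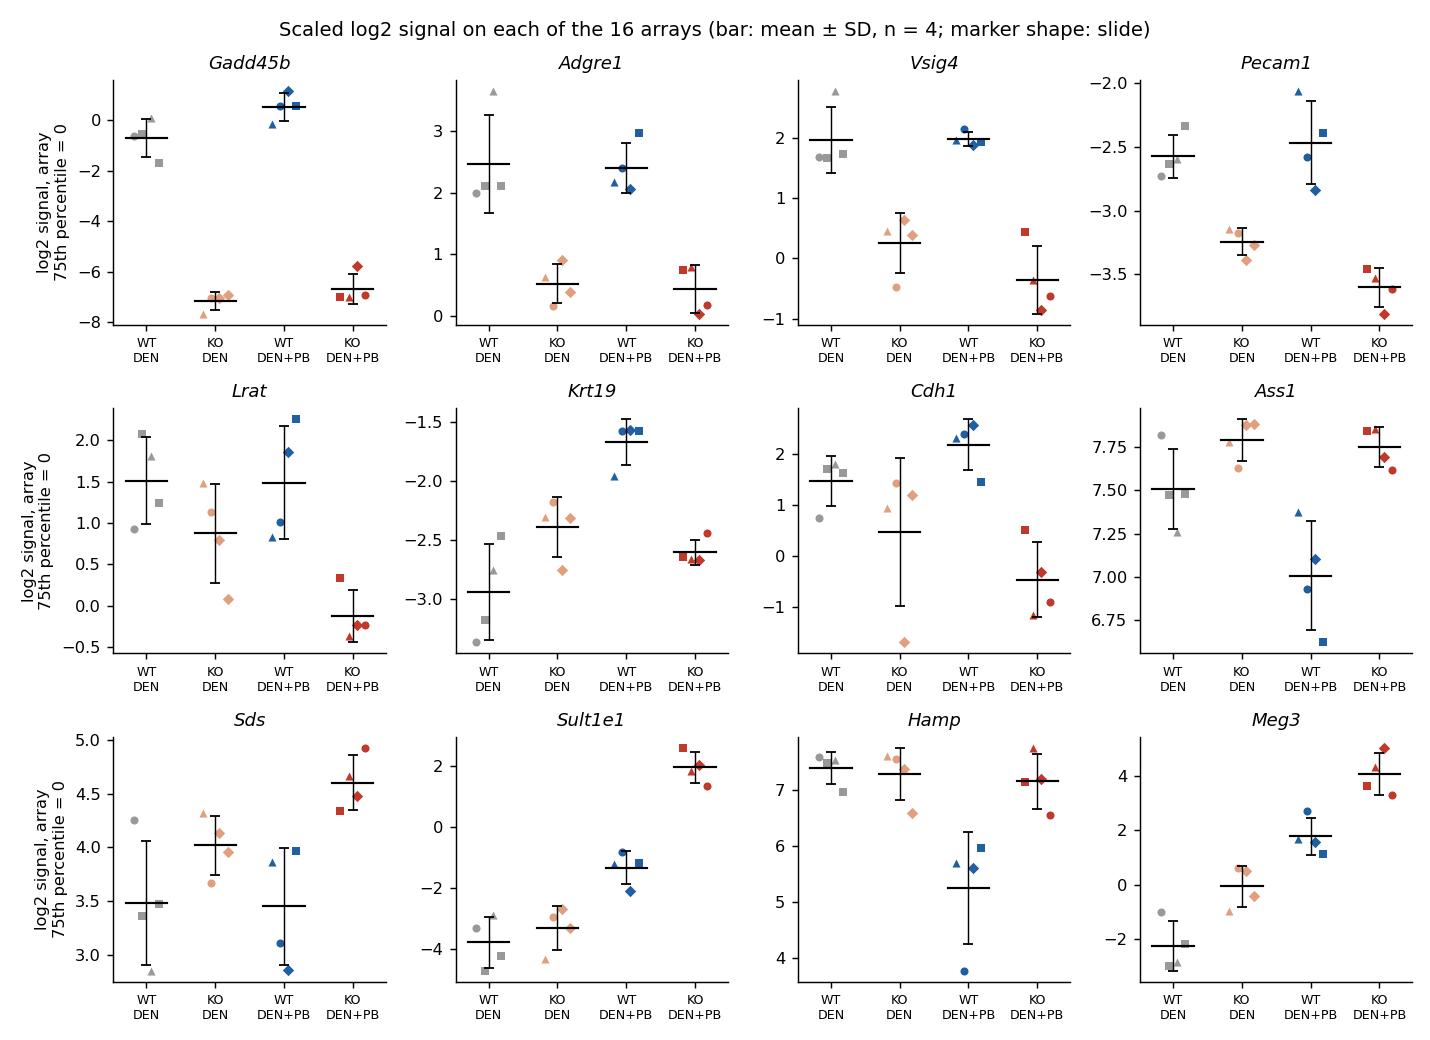
Log2 signal of 12 genes on each of the 16 arrays (vertical axis, with the 75th percentile of the array at 0), by group (horizontal axis). Points are arrays with the slide given by shape and bars the mean ± SD of 4 arrays. Under DEN + PB the KO points lie below all WT points for Gadd45b, Adgre1, Vsig4, Pecam1, Lrat, Krt19 and Cdh1 and above them for Ass1, Sds, Sult1e1, Hamp and Meg3.

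In the MAPK cascade, where Gadd45b acts, 1 of 24 genes was higher and 2 were lower, with a median of 0.00, beside the 7.61% called among all genes. Map3k1, a kinase upstream of JNK, was at 1.41, 1.65, 1.75 and 1.54 in WT and at 0.81, 0.41, 1.03 and 0.50 in KO (-0.90 ± 0.16 (SE), adjusted p = 0.00336). Map3k5, the stress kinase ASK1, was at 0.91, 0.85, 1.05 and 0.65 in WT and at 1.40, 1.67, 1.67 and 1.97 in KO (0.81 ± 0.17 (SE), adjusted p = 0.00840). The groups did not overlap for either kinase. Dusp10, a phosphatase of p38 and JNK, differed by -0.81 ± 0.21 (adjusted p = 0.0269, or 0.0949 without KO DEN + PB replicate 2). Of 22 immediate early genes, which MAPK signals induce, 0 were higher and 3 lower, with a median of -0.16, beside the 5.85% called lower among all genes. These were Fos (-1.11 ± 0.27), Jun (-0.98 ± 0.28), which pair as the factor AP-1, and Atf3 (-0.75 ± 0.20). In that order, they lost their calls without 3, 10 and 6 single arrays (highest adjusted p = 0.0626 and 0.134 without WT DEN + PB replicate 4 and 3, and 0.0895 without KO DEN + PB replicate 4). Of 23 p53 targets, Gadd45a was lower and 0 were higher.

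Lipid genes changed singly. In fatty acid synthesis, 1 of 23 genes was higher and 3 were lower, with a median of -0.12, beside the 7.61% called among all genes. Scd2, a fatty acid desaturase, was at 0.49, 0.71, 1.06 and 0.97 in WT and at -0.29, -0.73, -0.54 and -1.13 in KO, with no overlap (-1.48 ± 0.20 (SE), adjusted p = 0.000361). Pnpla3, a lipid droplet hydrolase (-2.16 ± 0.51, adjusted p = 0.0518 without WT DEN + PB replicate 3), and Gpam, which starts triglyceride synthesis (-0.82 ± 0.21, adjusted p = 0.0809 without KO DEN + PB replicate 4), were lower. Lpin1, a phosphatidate phosphatase, was just called higher (1.35 ± 0.40, adjusted p = 0.0499) and lost its call without 13 single arrays (adjusted p up to 0.151). Cidea, a lipid droplet protein, was at 5.69, 4.67, 4.02 and 6.57 in WT and at 3.34, 2.00, 3.23 and 2.64 in KO (-2.44 ± 0.62 (SE), adjusted p = 0.0242, or 0.0858 without WT DEN + PB replicate 4). Pdk4, which restrains glucose oxidation, differed by -1.42 ± 0.30 (adjusted p = 0.00830), and Ppara, the receptor of fasting and fatty acid oxidation, rose by 0.73 ± 0.18 (adjusted p = 0.0204, or 0.0688 without WT DEN + PB replicate 3), the only members called of 36. Psat1, of serine synthesis, was lower (-2.11 ± 0.43, adjusted p = 0.00730), above background on 3 of 4 KO arrays, as one of 2 members lower and 0 higher of the 25 genes of the ER stress and amino acid response. Slco1a4, a bile salt and organic anion carrier, was the one member called of 25 bile acid genes (1.19 ± 0.25, adjusted p = 0.00890).

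Genes of fetal liver and liver tumours were mixed, with 2 of 19 higher and 6 lower and a median of -0.36. The 2 higher were the imprinted non-coding RNAs Meg3 and Rian, which lie in the same cluster. Meg3 was at 1.68, 2.73, 1.58 and 1.14 in WT and at 3.63, 4.36, 5.05 and 3.29 in KO, a difference of 2.31 ± 0.49 (SE, adjusted p = 0.00904), and its 4 other probes differed by 1.82 to 2.31, 2 of them called. Rian was at -4.05, -3.44, -4.40 and -6.20 in WT and at -2.08, -2.26, -0.86 and -2.58 in KO (2.58 ± 0.46 (SE), adjusted p = 0.00282), above background on 3 of 4 WT arrays. Neither gene's groups overlapped. Dlk1, a protein-coding gene of the same imprinted cluster, differed by 0.51 and was not called (adjusted p = 0.526). The 6 lower were Cd24a, Golm1, Scd2, Cbr3, Tmem45a and Abcc4. Cbr3, a carbonyl reductase, was at 3.86, 3.98, 4.08 and 6.10 in WT and at 3.15, 2.32, 2.74 and 3.28 in KO (-1.63 ± 0.41 (SE), adjusted p = 0.0238, or 0.0829 without KO DEN + PB replicate 2), and 1 WT array was far above the other 3. The fetal protein Afp (0.04) was not called.

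Most of the remaining large changes were in genes of no list. Igsf23, an immunoglobulin superfamily protein, was at -3.24, -2.41, -1.79 and -2.81 in WT and at 1.97, 1.95, 1.93 and 1.87 in KO, the largest measured rise (4.49 ± 0.26 (SE), adjusted p = 4.06e-08, 22.5-fold). Otog, which encodes otogelin of the inner ear, was at -3.62, -3.64, -3.97 and -3.77 in WT and at -0.07, 0.81, 1.22 and -0.55 in KO (4.10 ± 0.37 (SE)). The other large rises were in Cox6b2 (2.93 ± 0.45), a testis form of a cytochrome oxidase subunit, Vsig2 (2.38 ± 0.32), the water channel Aqp4 (2.37 ± 0.56), Wdfy1 (2.34 ± 0.18) and Ppp1r42 (2.21 ± 0.33). Aqp4 lost its call without KO DEN + PB replicate 2 (adjusted p = 0.0593). A further probe of Wdfy1 was called higher too (2.51, adjusted p = 9.71e-09), while a dimmer one was called in the opposite direction (-0.70 ± 0.20, adjusted p = 0.0487). Sdcbp2, a PDZ domain protein, was the remaining large fall (-2.28 ± 0.38). Called genes not above background on any array of 1 group have only a bound. Tescl was at least 4.45-fold higher in KO, Pdcd1, the receptor PD-1, at least 1.98-fold (above background on 3 of 4 KO arrays) and Tmed6 at least 1.54-fold (2 of 4), while Ankrd1, a nuclear ankyrin protein, was at least 5.08-fold lower and Upk3a, a urothelial membrane protein, at least 3.44-fold lower. The calls of Pdcd1 and Upk3a were lost without 5 and 2 single arrays (highest adjusted p = 0.105 without KO DEN + PB replicate 3 and 0.0688 without WT DEN + PB replicate 3).

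Lists without a called member were those of the cell cycle (28 genes, median -0.13), male-biased genes (23, 0.16), the growth hormone axis (18, 0.38), the circadian clock (18, 0.14), interferon and MHC class I (31, 0.25), the proteasome (38, 0.04), ribosomal proteins (82, 0.11), adipocyte genes (8, -0.49) and skeletal muscle genes (4, 0.03). Of 21 female-biased genes, Sult1e1 and Cyp2c40 (0.79 ± 0.17) were higher and 0 lower. The second probe of Cyp2c40 differed by 0.56 and was not called (adjusted p = 0.080). NRF2 targets had 0 higher and 2 lower of 23, cholesterol synthesis 1 higher (Acat2) and 0 lower of 25, lipid droplet genes 1 higher (Hsd17b11) and 1 lower (Cidea) of 19, the inflammasome list 0 higher and 1 lower (Casp1) of 24, and oxidative phosphorylation 2 higher (Cox6b2 and Cox7c) and 0 lower of 80. Acat2 and Hsd17b11 lost their calls without 5 and 11 single arrays (highest adjusted p = 0.0758 and 0.131, both without WT DEN + PB replicate 3). The second probe of Hsd17b11 differed by 0.44 and was not called (adjusted p = 0.428). Zinc finger genes had 5 higher and 5 lower of 278, and olfactory receptors 0 higher and 1 lower (Olfr339) of 139. Over all genes, 1.76% were called higher and 5.85% lower.

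Markers of tissues other than liver were checked in full. Of 19 pancreatic acinar genes on the array, 10 were above background on none of the 8 arrays, and of 8 tested, 2 were higher, the lipases Cel (1.24 ± 0.31) and Pnliprp1 (1.46 ± 0.40), with a summed signal of 6.9 to 9.6 in WT and 8.1 to 13.0 in KO, in units of the array's 75th percentile. Pnliprp1 was above background on 0 of 4 WT DEN and 0 of 4 KO DEN arrays, and on 4 of 4 in each DEN + PB group. The study lists it among genes raised by PB in both genotypes. Of the tested erythroid genes, Klf1 was higher (0.85 ± 0.20) and 0 of 5 lower, and their summed signal was 152.0 to 260.6 in WT and 117.2 to 172.1 in KO. The summed signal of adipocyte genes was 167.2 to 257.9 in WT and 145.7 to 196.7 in KO, with the defining genes Adipoq, Lep and Plin1 above background on none of the 8 arrays. Their mean over the 8 tested genes, centred as for the liver cell lists, did not overlap, at 0.12 to 0.78 in WT DEN + PB and -0.59 to -0.02 in KO DEN + PB, and 4 of the 8 were called lower under DEN alone. The calls of Cel, Pnliprp1 and Klf1 were lost without 4, 7 and 3 single arrays (highest adjusted p = 0.0753 and 0.0618 for Cel and Klf1 when KO DEN + PB replicate 2 was left out, and 0.0953 for Pnliprp1 when WT DEN + PB replicate 3 was). The ranges of summed signal overlapped for all 3 lists, and their part in the results was not tested.

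**Figure D4:**
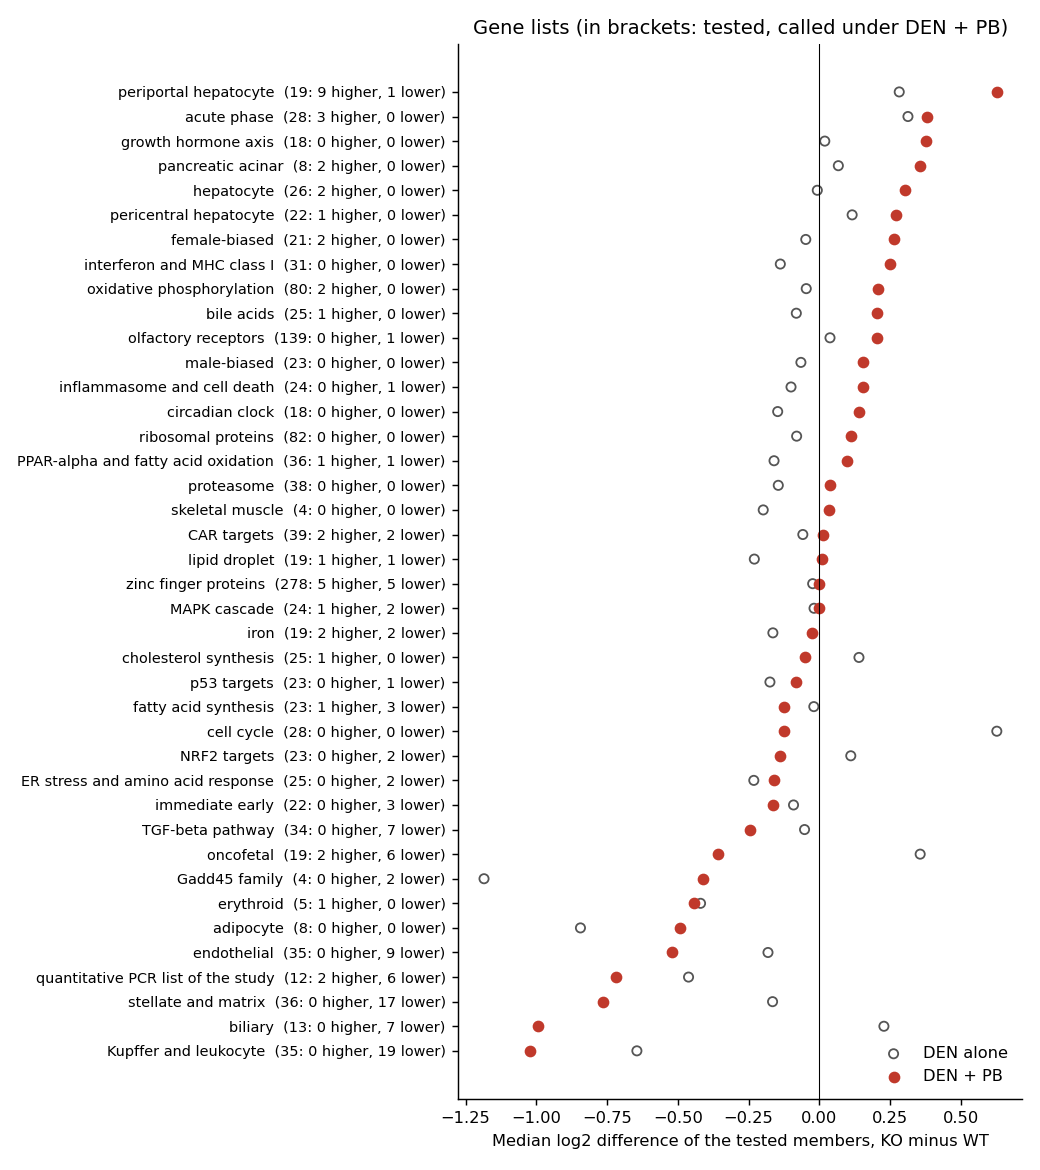
Median log2 difference between KO and WT of 40 gene lists (horizontal axis), filled for DEN + PB and open for DEN alone, with lists ordered by the DEN + PB median and the number of genes tested and called under DEN + PB in brackets. Kupffer and leukocyte, bile duct, and stellate and matrix genes lie at the low end, with medians of -1.02, -0.99 and -0.76, and periportal hepatocyte genes at the high end with 0.63.

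The same genotypes under DEN alone gave separate group means, since the 8 arrays are other mice. The calls were not separate. Both comparisons came from the same fit, with a shared probe filter and a variance per probe pooled over all groups. The overlap of calls is therefore not independent evidence. Under DEN alone, 367 genes were called (2.76%), 136 higher and 231 lower. Of these, 207 were also called under DEN + PB, which is 56.4% of the DEN calls and 20.5% of the DEN + PB calls, and all 207 differed in the same direction, 56 higher and 151 lower. Among the 234 genes higher under DEN + PB, 212 had a difference above 0 under DEN alone, with a median of 0.51, and among the 778 lower, 717 were below 0, with a median of -0.53. Over all genes, 68.8% had the same sign. The 234 and the 778 genes were chosen by their DEN + PB difference, as were most genes named here. Smaller values under DEN alone follow in part from that choice. Among the genes whose differences were close in both were Igsf23 (4.24 under DEN alone), Otog (4.00), Wdfy1 (2.15), Tescl (2.75), C5ar2 (-2.07), Adgre1 (-1.94) and Meg3 (2.20).

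Other genes had smaller differences under DEN alone, and some had larger ones, among them Cidea (-4.21 under DEN alone, -2.44 under DEN + PB), Ppp1r42 (3.25 and 2.21) and Gadd45a (-1.83 and -1.20). The change of the genotype difference with PB was not called for any gene (0 of 13304, 0%; 881 with an unadjusted p under 0.05, smallest adjusted p = 0.162). Bile duct genes had a median of 0.23 under DEN alone, with 0 of 13 called, against -0.99 under DEN + PB, and 8 of the 13 had an unadjusted p under 0.05 for the change. That p was under 0.05 for 309 of the 1012 genes called under DEN + PB and for 6.62% of all genes. Krt19 was the clearest of the bile duct genes, with 0.55 under DEN alone and -0.93 under DEN + PB (unadjusted p = 4.76e-05, adjusted p = 0.162). Sult1e1 went from 0.46 to 3.28 (adjusted p = 0.185), Hamp from -0.11 to 1.91 (adjusted p = 0.415), and Scd2 from -0.31 to -1.48 (adjusted p = 0.275). For Kupffer and leukocyte genes the medians were -0.64 and -1.02, with 7 of 35 lower under DEN alone, for stellate and matrix genes -0.16 and -0.76, with 3 of 36 lower, and for endothelial genes -0.18 and -0.52, with 2 of 35 lower. Periportal genes had medians of 0.28 and 0.63. Whether any of these lists differed between the treatments was not tested.

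**Figure D5:**
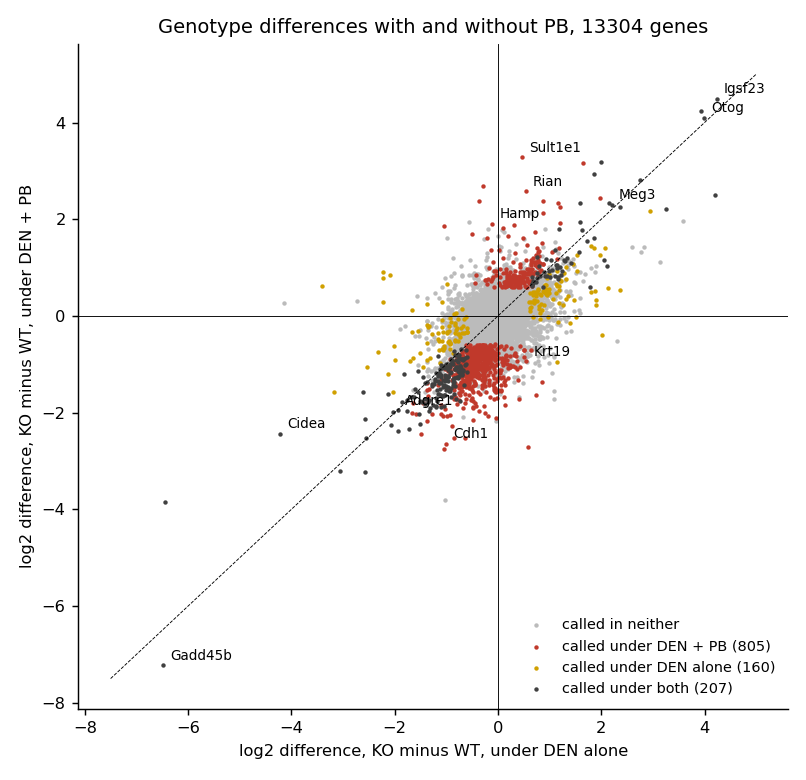
Difference between KO and WT (log2) under DEN alone (horizontal axis) and under DEN + PB (vertical axis) for 13304 genes, 1 point per gene, coloured by where the gene was called. The 207 genes called in both (dark) all have the same sign on both axes, and Sult1e1, Hamp and Krt19 lie far from the dashed line of equal differences.

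Because the name of the KO stock holds another strain, the genes next to Gadd45b on its chromosome were examined in the order of the RefSeq table. Among the 20 nearest genes tested, 10 on each side, 0 were called. Of the nearest 50, Tbxa2r, the thromboxane receptor, 16 genes away, was called (-0.77, adjusted p = 0.0252). Of the nearest 200, 2 were higher and 7 lower, 4.5%, and of all 631 on the chromosome, 9 higher and 47 lower, 8.88%, beside the 7.61% of all genes.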

How the data were processed

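Processed signals, an intensity on a linear scale, were deposited by the authors as scanner output of Feature Extraction (version 12 per the labels' processing notes), corrected for background within the array and not scaled between arrays. The deposited series table holds the mean intensity over the spots of a probe, to within 5e-04 percent. Outlier spots (71 to 122 per array of 43379) were left out and repeat spots averaged, which left 98 missing values. The log2 signal minus the array's 75th percentile was used. Testing was limited to probes that the scanner software marked as above background in all 4 mice of at least 1 group (24454 of 41174 probes). Symbols came from a RefSeq table (GRCm38.p6), which named 28223 probes (68.5%) for 19096 genes. The array was designed on mm9, so no probe coordinates are given.

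Group means of all 16 arrays were fitted with limma 3.58.1 (R 4.3.3), and p was adjusted over all probes tested. The study used an analysis of variance at the same thresholds. Single genes were also tested by two-sided exact permutation over 70 assignments. On simulated data with 200 changed probes, 55% of changes of log2 1 and 95% of changes of log2 2 were recovered, with 8 false calls. The simulated noise was normal and independent between probes, and in the data 1648 probes were called. These rates may therefore not carry over to the data. The number of arrays limits the precision. A bound sets the brighter group's mean against the dimmer group's mean of, per array, the lowest signal above background or the probe's own if higher.

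Named were Gadd45b, the genes of the quantitative PCR list, the 10 largest rises and falls among called genes above background on all 8 arrays with no overlap and 1 sign on 4 slides, the 3 largest bounds and 5 brightest genes each way, up to 4 called members per list, and called genes among the 10 nearest on each side of Gadd45b. All called members of the main marker lists, the uncalled members given, Gadd45g, Tbxa2r and the second probes were chosen after their values were seen. Members and lists were chosen with earlier results of these data known. Alternatives covered scaling, background (normexp with an offset of 50, on the median signal, since no mean signal was in the columns used), filters, blocks, weights, thresholds and leaving out each array.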

Additional observations from a re-analysis of the deposited data

Results flagged for a closer look

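In 190 groups of 4 arrays of the named genes, 9 held an array far from the other 3 (4.74%), and chance gives about 1 in 20. In WT DEN + PB, Akr1b7 was at -1.26 in replicate 1 against -0.98 for the nearest array, Krt19 at -1.96 in replicate 1 against -1.58, C5ar2 at -0.86 in replicate 3 against -0.52, and Lyz2 at -1.84 in replicate 3 against -0.74. Also in WT DEN + PB, Agxt was at 6.46 in replicate 3 against 6.73, Cbr3 at 6.10 in replicate 4 against 4.08, Hamp at 3.77 in replicate 2 against 5.60, and Saa4 at 4.61 in replicate 4 against 4.17. In KO DEN + PB, Krt19 was at -2.44 in replicate 4 against -2.65.

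A change of the genotype difference with PB passed the threshold for 2 probes without a gene symbol. For A_52_P134621 (adjusted p = 0.00281) the change was 4.34 ± 0.48 (SE, log2), and the probe was above background on 4 of 4 WT DEN arrays and on 0 of 4 in each other group. For A_52_P259497 (adjusted p = 0.0133) it was -4.48 ± 0.59 (SE), and the probe was above background on 1 WT DEN, 4 WT DEN + PB, 4 KO DEN and 3 KO DEN + PB arrays.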

How the results depend on the processing

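The direction of the named differences under DEN + PB turned in 5 of 3070 recomputed values: Cyp2b9 (0.13) and Pdcd1 (-0.010) with normexp, Olfr339 (0.053) and Zfp184 (0.066) with normexp without outlying backgrounds, and Cyp2b10 without KO DEN + PB replicate 3 (0.012, the highest of its values of -0.44 to 0.012 without 1 array). Calls were lost in 553, and 42 of the 99 named called genes lost theirs without some single array. In the limits that follow, the cause was not tested. Genes called under DEN + PB, 1012 at the settings used (234 higher, 778 lower), were 44 (14 and 30) with normexp, 422 (146 and 276) with normexp without outlying backgrounds, 647 (112 higher) with no filter, and 531 (87 and 444) at 2-fold. They were 31 higher without scaling and 401 higher with array weights, and 1226 when any probe of a gene counted, an alternative chosen after seeing the data. With the slide as a block there were 874 calls, or 965 over the 8 DEN + PB arrays alone. Same-numbered arrays were not paired: their deviations correlated with r of -0.11 to 0.20, and the replicate block gave 995 calls. Leaving out 1 array gave 661 (without KO DEN + PB replicate 2) to 1136 calls, 112 to 293 higher and 525 to 858 lower. It was 670 without WT DEN + PB replicate 4, and 141 and 155 higher without WT DEN + PB replicate 3 and KO DEN + PB replicate 4. Under DEN alone, 367 became 54 without scaling, 13 with normexp, 240 with normexp without outlying backgrounds, 142 with no filter, 140 with the slide as a block, 200 without moderation, 197 at 2-fold, and 164 to 413 without 1 array. The difference of the genotype effects, 0 calls, had 1 without scaling, 1 with normexp without outlying backgrounds, 4 with array weights, and 0 to 4 without 1 array.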
